A study of Mus musculus with 16 samples.

Results

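Adipsin, leptin, adiponectin, resistin, visfatin and chemerin are proteins that fat secretes into the blood or makes in quantity, and 9 genes that encode them and their best-known receptors were followed in the liver and white adipose tissue of obese mice. The genes were Cfd, Lep, Lepr, Adipoq, Adipor1, Adipor2, Retn, Nampt and Rarres2, which make up 9 of the 22322 gene identifiers in the deposited tables. They were taken by symbol, and the set was chosen by its drug contrasts (halofuginone against vehicle counts within each tissue), because Cfd was lower in treated liver but higher in treated fat and because Lepr was higher in treated liver. The drug contrasts of these 9 genes are therefore given as descriptions, and the count of members called stands only beside the share of all genes called, with nothing read from it. Tests are given for the comparison of the tissues without drug and the other genes of the same pathways, which the choice did not use. They are not fully independent of it, because the pathway lists were drawn up with earlier results of these data known. The tissue comparison also shares its vehicle counts with the drug contrasts.

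The mice were DIO (diet-induced obese) and received 100 μg/kg halofuginone, labelled H100, or vehicle, labelled HFD, into the peritoneum every 2 days for 8 weeks. Halofuginone is a small molecule that blocks prolyl-tRNA synthetase, the enzyme that loads proline onto its tRNA. There were 5 liver libraries per arm and 3 of white adipose tissue per arm. Strain, sex, age and fat depot are not given in the sources used here, no lean mice were analysed, and nothing says whether libraries of a group came from separate animals, so p-values measure the spread between these libraries.

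Fat cells release adipokines, hormones and enzymes that report fat stores and shape metabolism in other organs. Leptin acts through its receptor Lepr on the kinase JAK2 and the factor STAT3 to restrain appetite, while adiponectin acts through Adipor1 and Adipor2, which carry ceramidase activity and are tied to AMPK and PPAR-alpha signalling, the second receptor above all in liver. Adipsin, the product of Cfd, is complement factor D, the serine protease that cleaves factor B in the alternative complement pathway, and it marks mature fat cells. Resistin is a small secreted protein made in mice mainly by fat cells, Nampt is the rate-limiting enzyme of NAD salvage and also circulates, and Rarres2 encodes chemerin, a ligand of Cmklr1 made by both liver and fat.

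The proximal promoters of 4 secreted members and of Lepr are shown because their RNA differed between the tissues or between the arms. Each run is the 250 bases before the start site in RefSeq on GRCm38.p6, 5′ to 3′ on the gene's strand, with capitals on any match to the motifs searched. Per the submitters' processing notes the deposited tables were made on mm39, so these positions are not positions in the files' build. Of the 9 genes, 8 had a window, 10 windows in all.
Cfd, chr10:79890603-79890852, plus strand: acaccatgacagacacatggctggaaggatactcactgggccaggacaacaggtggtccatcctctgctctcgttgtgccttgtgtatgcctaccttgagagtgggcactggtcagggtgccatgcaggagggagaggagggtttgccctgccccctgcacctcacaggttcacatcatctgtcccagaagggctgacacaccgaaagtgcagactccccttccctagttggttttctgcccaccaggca
Lep, chr6:29059971-29060220, plus strand: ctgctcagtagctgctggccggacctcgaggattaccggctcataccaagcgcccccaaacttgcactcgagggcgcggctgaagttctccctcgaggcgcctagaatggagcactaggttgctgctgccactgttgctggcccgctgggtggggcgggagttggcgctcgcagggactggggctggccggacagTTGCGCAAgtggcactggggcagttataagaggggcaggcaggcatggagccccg
Adipoq, chr16:23146286-23146535, plus strand: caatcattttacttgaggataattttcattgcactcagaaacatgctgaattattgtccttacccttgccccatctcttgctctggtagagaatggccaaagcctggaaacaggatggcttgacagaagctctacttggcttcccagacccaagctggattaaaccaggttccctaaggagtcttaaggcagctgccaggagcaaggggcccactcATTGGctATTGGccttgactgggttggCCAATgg
Retn, chr8:3655520-3655769, plus strand: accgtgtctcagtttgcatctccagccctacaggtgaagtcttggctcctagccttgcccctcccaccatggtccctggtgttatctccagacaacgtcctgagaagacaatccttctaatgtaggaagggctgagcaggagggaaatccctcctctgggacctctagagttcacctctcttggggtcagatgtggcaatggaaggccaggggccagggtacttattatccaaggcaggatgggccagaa
Lepr, chr4:101717157-101717406, plus strand: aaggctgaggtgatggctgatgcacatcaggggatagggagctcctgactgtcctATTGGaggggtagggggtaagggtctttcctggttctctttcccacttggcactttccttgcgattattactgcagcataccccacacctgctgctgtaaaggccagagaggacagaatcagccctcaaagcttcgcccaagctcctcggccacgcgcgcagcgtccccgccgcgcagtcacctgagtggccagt
Both strands were searched for 4 motifs, none of which contains another. The letters TATAAA were present in 12.4% of all 32851 windows of that length, the letters CCAAT in 33.8%, the C/EBP type motif TTNNGCAA in 9.56% and the composite C/EBP-ATF motif TGATGNAA in 3.45%. Of the 10 windows of these genes, 3 held CCAAT, 1 held the C/EBP type motif and 0 held either of the others. The Lep window held TTGCGCAA at 55 to 48 bases before the start. The Adipoq window held CCAAT, read on either strand, at 34 to 30, 27 to 23 and 7 to 3 bases before the start, and the first of 2 Lepr starts held it, read on the other strand, at 195 to 191 bases. The Cfd and Retn windows held no match to these letters.

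The libraries held 20309956 to 31980683 counts (liver) and 17070614 to 21387799 counts (fat), so that the 3 counts which a count of 0 still allows equalled 0.0983 to 0.150 CPM (counts scaled for depth) for liver and 0.139 to 0.1799 for fat. These floors cover counting error only. Halofuginone liver library 1 stood apart from its group. On the first principal component, which carried 56.2% of the variance, it scored −23.3 beside −36.0 to −28.3 in vehicle and 32.4 to 58.0 in the other treated livers, and 10 genes of the ATF4 stress response, which halofuginone is known to induce, summed to 196 CPM in it against 1183 to 1401 in the other 4 and 147 to 173 in vehicle. Of these, Asns was at 6.71 CPM in library 1, 0.317 to 1.35 in vehicle and 55.45 to 126.8 in the other treated livers. In library 1 Trib3 was at 5.96 CPM (vehicle 2.755 to 5.733) and Ddit3 at 3.73 CPM (vehicle 4.67 to 11.98). The first component of the fat libraries, with 39.4% of the variance, held vehicle and treated libraries mixed. The 16 fat cell markers summed to 24890 to 41130 CPM in fat, and the 10 hepatocyte markers to 123900 to 140000 CPM in vehicle liver and 52270 to 115900 CPM in treated liver. Vehicle fat library 3 held 76.1 CPM of 5 epididymis markers where the other 5 held 0.540 to 7.53, together with the lowest sum of fat cell markers and, at 9606 CPM, the highest sum of 10 macrophage markers (other vehicle libraries 4378 and 5211, treated 2978 to 3215). Halofuginone fat library 1 held 68.4 CPM of 5 brown fat markers, against 4.38 to 9.70 in the others. In bulk tissue, fewer cells of a type and less RNA per cell cannot be told apart.

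Without drug, leptin, adiponectin and resistin RNA was found in fat and stayed at or under 1 count per library in liver, whereas adipsin was read in both. Compared per gene length as FPKM (the authors' values, which divide fragments by gene length and depth), the order in vehicle fat by median was Adipoq (1937), Lep (686.5), Cfd (583.2), Rarres2 (404.4), Retn (221.8), Adipor2 (148.6), Adipor1 (73.1), Nampt (39.1) and Lepr (0.94). The ranges of Adipoq and Lep, of Lep and Cfd, of Rarres2 and Retn and of Retn and Adipor2 overlapped between libraries, and the other neighbours were apart. In vehicle liver chemerin led at 408.9 FPKM, followed by Adipor2 (158.1), Adipor1 (27.9), Nampt (21.7), Cfd (9.77) and Lepr (0.76), with only Nampt and Cfd overlapping among neighbours above 0. Lep was at a count of 0 in all 10 livers.

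**Figure D1:**
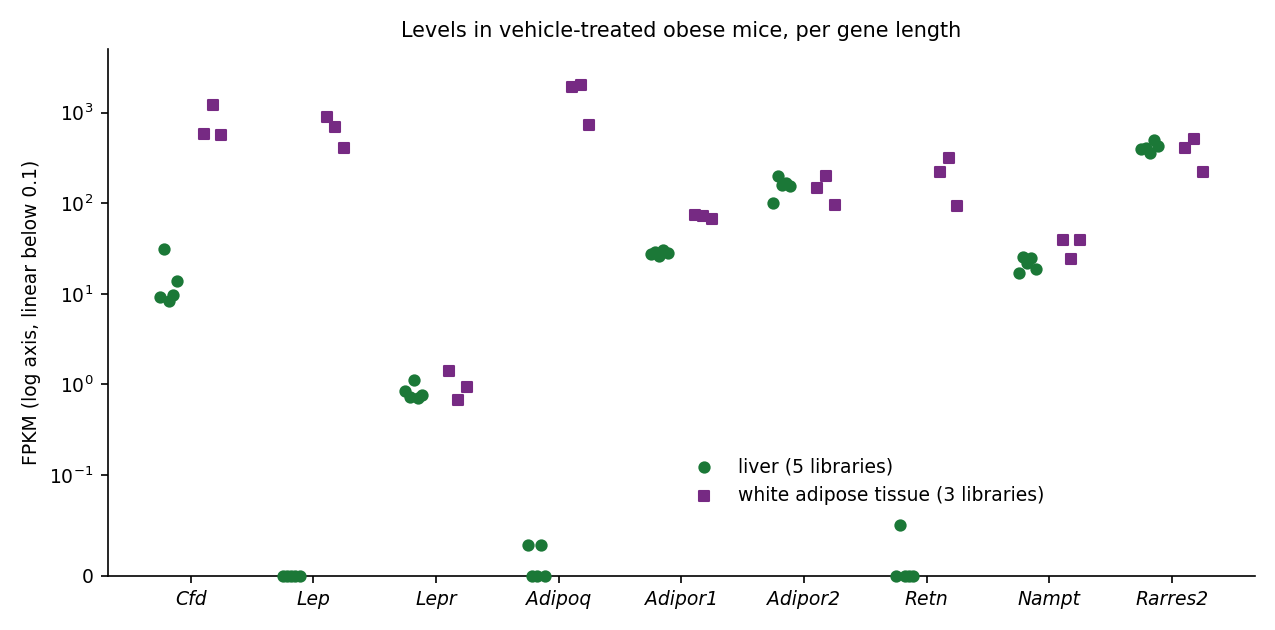
Level of each gene in the vehicle libraries, in FPKM on a log axis that is linear below 0.1; circles are the 5 liver libraries and squares the 3 white adipose libraries. Lep, Adipoq and Retn sit at or near 0 in liver, Rarres2 and Adipor2 lie at similar heights in both tissues, and Cfd lies between 8.29 and 31.4 in liver and between 558.6 and 1210.0 in fat.

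The comparison of vehicle fat with vehicle liver, in 1 edgeR quasi-likelihood fit of all 16 libraries, called 10746 of 14853 genes (72.3%, with 40.9% higher and 31.5% lower in fat) at a Benjamini-Hochberg adjusted p under 0.05, so a call on this contrast is common. Each tissue has its own deposited table, and tissue and table cannot be told apart. Cfd was higher in fat by 4.55 on the log2 scale (SE 0.45, edgeR adjusted p = 1.65e-07), with every fat library above every liver library and values of 4.11 to 5.85 over all alternatives. Against a liver floor of 3 counts per library, Lep was at least 7962-fold, Adipoq at least 7420-fold and Retn at least 688-fold higher in fat.

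The receptors and the more widely made members depended on how the tissues were scaled. Rarres2 was lower in fat by TMM scaling, at −1.34 (SE 0.28, edgeR adjusted p = 0.000535), and Adipor2 at −1.28 (SE 0.31, adjusted p = 0.00159), but with library size alone the differences were −0.15 (adjusted p = 0.598) and −0.084 (adjusted p = 0.791). Lepr, at −0.86 (SE 0.35, edgeR adjusted p = 0.0370), turned to 0.34 with library size alone and lost its call without vehicle liver library 1 or 3 or vehicle fat library 2 or 3 (edgeR adjusted p of 0.0599 to 0.157). Nampt (−0.36, SE 0.26, edgeR adjusted p = 0.231) turned to 0.83 with library size alone, and Adipor1 went from 0.16 (SE 0.10, edgeR adjusted p = 0.162) to 1.35. That change of scaling moved the median log2 difference of all genes from 0.18 to 1.36. On FPKM the 3 fat libraries held 67.2 to 73.3 for Adipor1 and the 5 livers 26.1 to 30.6.

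Adipsin RNA was read in every vehicle liver and was at or near 0 in every treated liver. Its count was 220, 609, 172, 234 and 393 in the vehicle livers, which is 8.71, 30.5, 8.02, 8.74 and 12.9 CPM, and 0, 2, 0, 0 and 1 in the halofuginone livers. All 5 treated livers, library 1 included, were at or under the 3-count floor and below every vehicle liver. The mean of 13.8 ± 9.55 CPM in vehicle (SD, n = 5) was at least 116-fold higher than the floor of the treated livers over the group. Vehicle library 2 held more than the other 4 and raised that mean and the bound, the vehicle median being 8.74 CPM. Without that library the separation of the groups was the same, since the lowest vehicle liver still held 172 counts.

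Vehicle livers with Cfd held next to no Adipoq, Lep or Plin1. Vehicle fat held 1.87 to 4.78 Adipoq counts for each Cfd count, whereas vehicle livers with 172 to 609 Cfd counts held 0 or 1 count of Adipoq, and Lep was at 0. Of 16 fat cell markers, Plin1, the lipid droplet coat of mature fat cells, and Acvr1c were at or under 3 counts in the livers of both arms, Plin1 being at 0 in all 5 vehicle livers. The 16 markers together summed to 2163 to 3008 CPM in vehicle liver and to 197 to 1224 CPM under halofuginone, the highest treated value being that of library 1. Car3, which liver also makes, was most of that sum in vehicle liver, with a mean of 1853 CPM beside a mean sum of 2636. In treated liver its mean was 166.8 CPM (6.67 to 764.9) beside a mean sum of 542.9, so it was not most of it there. The other 15 markers summed to 672.9 to 870.4 CPM and 190.4 to 487.1 CPM, and Gpd1 was the largest of them, with means of 437.5 and 205.9 CPM. Among markers under 1 CPM in vehicle liver, the vehicle and treated means were 0.301 and 0.316 for Trarg1 and 0.154 and 0.145 for Slc2a4. They were 0.689 and 1.02 for Adrb3 and 0.129 and 0 for Aqp7. Relative to Cfd, in FPKM within each vehicle library, 8 of the 16 markers, Fabp4 and Plin1 included, were lower in all 5 livers than in all 3 fat libraries. On the same ratio 4 markers (Cidea, Car3, Gpd1 and Thrsp) were higher in all 5 livers, and the other 4 (Cidec, Lipe, Plin4 and Pnpla2) overlapped. Their part in the Cfd values was not tested.

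Fat showed the opposite direction for the same gene. Cfd was at 532.0, 1063 and 529.7 CPM in the vehicle libraries and at 2586, 1763 and 3461 CPM in the halofuginone libraries. Every treated library was above every vehicle library, and the log2 fold change was 1.88 (SE 0.38), between 1.65 and 2.30 when any 1 library was left out. Without the vehicle library that held epididymis markers it was 1.71, and without the treated library that held brown fat markers it was 1.88. Per length, Cfd passed Adipoq as the most abundant of the 9 RNAs: vehicle fat held 0.301, 0.603 and 0.773 FPKM of Cfd for each FPKM of Adipoq, and treated fat 2.03, 1.95 and 2.56. The fat effect minus the liver effect was 10.8 on the log2 scale (SE 0.92), a value that rests on a treated liver group at the floor and so depends on the prior count. It ran from 5.71 to 11.8 over all alternatives.

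**Figure D2:**
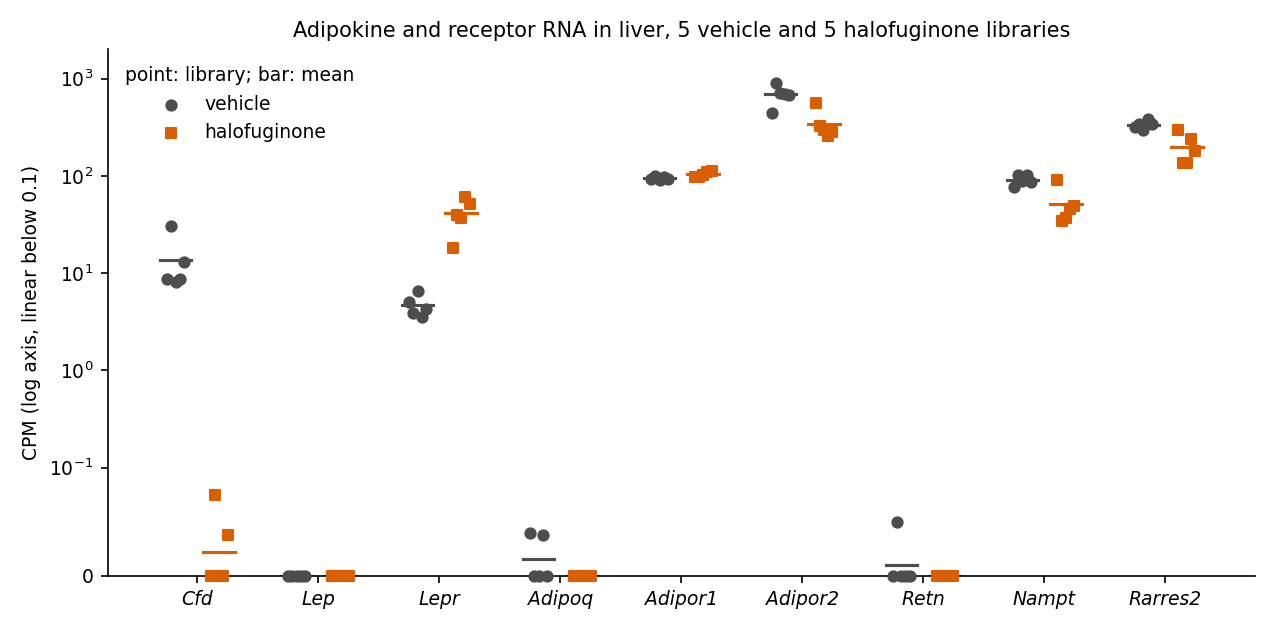
CPM of the 9 genes in each liver library, on a log axis that is linear below 0.1; circles are vehicle, squares halofuginone, and bars group means (n = 5 each). Cfd lies at the bottom of the axis in all treated livers, Lepr lies at 3.55 to 6.48 CPM in vehicle and 18.1 to 60.1 CPM in treated liver, and Lep, Adipoq and Retn lie at or near 0 in both arms.

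**Figure D3:**
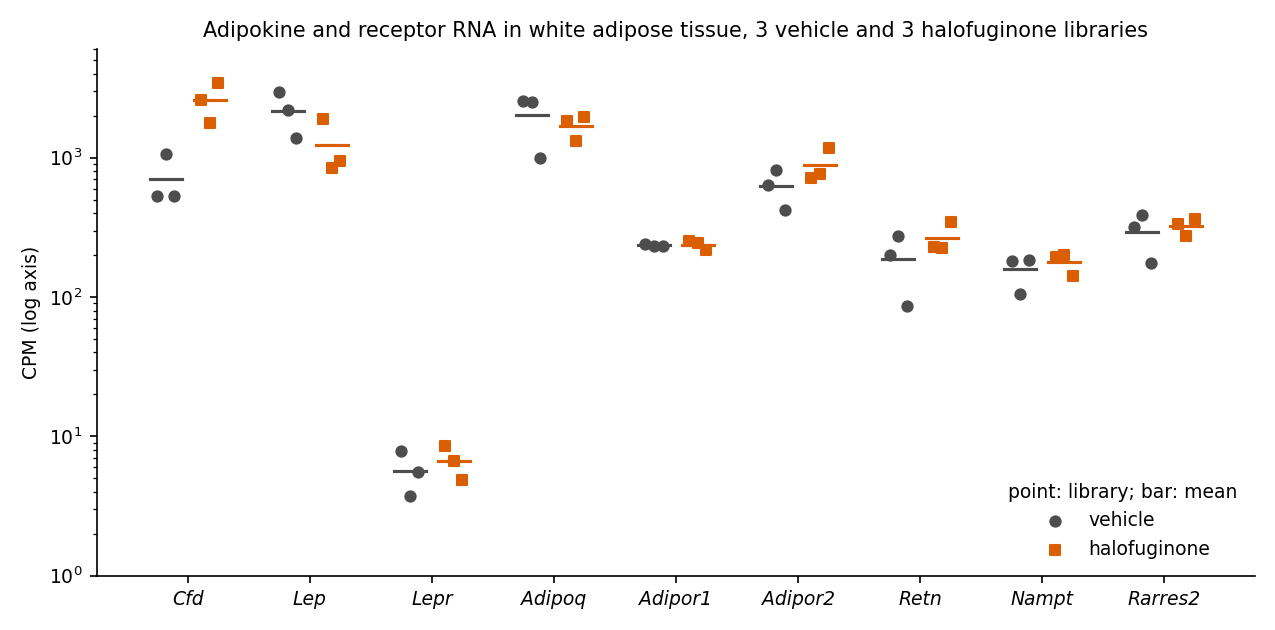
CPM of the 9 genes in each white adipose library, on a log axis; circles are vehicle, squares halofuginone, and bars group means (n = 3 each). Cfd is the gene whose arms do not overlap. All genes but Adipor1 spread widely among the vehicle libraries, Retn the most on this axis (86.3 to 274.7 CPM).

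Leptin itself was read in fat alone. Vehicle fat held 2941, 2193 and 1384 CPM of Lep and treated fat 1902, 850.0 and 954.3 CPM. The highest treated library lay above the lowest vehicle library, so the arms overlapped, and the log2 fold change was −0.81 (SE 0.40). Single libraries moved that value by over 1.5 times, from −0.53 without vehicle library 1 to −1.27 without halofuginone library 1. Per length the ratio of Adipoq to Lep was 2.19, 2.93 and 1.80 in vehicle fat and 2.44, 3.88 and 5.10 in treated fat, which also overlapped.

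The leptin receptor was the member whose treated livers all stood above vehicle. Lepr stood at 4.99, 3.91, 6.48, 3.55 and 4.29 CPM in the vehicle livers and at 18.1, 39.9, 36.5, 60.1 and 51.3 CPM in the halofuginone livers. No treated liver overlapped a vehicle liver, and library 1, which lay near vehicle on the first component, was the lowest of the treated 5 yet above all vehicle livers. The log2 fold change was 3.15 (SE 0.30), and 3.32 without that library. Fat held 7.80, 3.72 and 5.54 CPM in vehicle and 8.55, 6.65 and 4.89 CPM under halofuginone, with overlapping arms and a log2 fold change of 0.24 (SE 0.36). The effect in fat minus that in liver was −2.93 (SE 0.48).

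Lepr has several transcript forms, among them a long signalling form and a short or secreted form, and the tables give 1 value per gene. A check chosen after the values were seen took the gene length implied by the authors' FPKM. Each count was divided by its FPKM and by the library's total counts, which were taken as the depth, to give that length in bases. That length was 5568, 4986, 5390, 4964 and 5390 bases in the vehicle livers and 5481, 4696, 4668, 4816 and 4642 bases in the treated livers. Treated livers 2 to 5 were thus below every vehicle liver and treated liver 1 was among them, while all 6 fat libraries lay between 5479 and 5547 bases. Which forms make up these lengths was not tested, and Leprot, which shares its first exons with Lepr, can share reads with it. For the other members except Nampt, the longest implied length within a tissue and arm was at most 1.013 times the shortest.

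Adiponectin RNA was confined to fat in these libraries, with 0 or 1 count in each liver. Its level was 2543, 2520.0 and 990.8 CPM in vehicle fat and 1840.0, 1310.0 and 1945 CPM in treated fat. The arms overlapped and the log2 fold change was −0.25 (SE 0.38), between −0.57 and −0.046 when any 1 library was left out. The low vehicle value came from library 3, which held the epididymis and the highest macrophage markers, and without it the value was −0.57.

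The adiponectin receptors parted in liver. Adipor1 was at 93.3, 100.7, 90.6, 98.2 and 93.1 CPM in vehicle and at 98.0, 98.2, 102.0, 108.5 and 111.0 CPM under halofuginone, a log2 fold change of 0.12 (SE 0.08) with overlapping arms. Adipor2 was at 444.3, 909.1, 707.6, 692.0 and 681.5 CPM in vehicle and at 565.2, 323.5, 297.7, 254.5 and 278.8 CPM under halofuginone. Treated library 1 was again the one nearest vehicle: it was above the lowest vehicle liver, whereas the other 4 were below all 5. The log2 fold change was −0.998 (SE 0.24), and −1.27 without that library.

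Per length, liver carried more Adipor2 than Adipor1 in every library of both arms, by a smaller margin under the drug. The FPKM ratio was 3.67, 6.90, 6.05, 5.41 and 5.60 in vehicle liver and 4.47, 2.56, 2.25, 1.81 and 1.96 in treated liver, where again library 1 alone overlapped vehicle. In fat the ratio was 2.03, 2.71 and 1.43 in vehicle and 2.21, 2.42 and 4.17 under halofuginone. Treated livers 2 to 5 thus lay within the span of the 6 fat libraries.

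**Figure D4:**
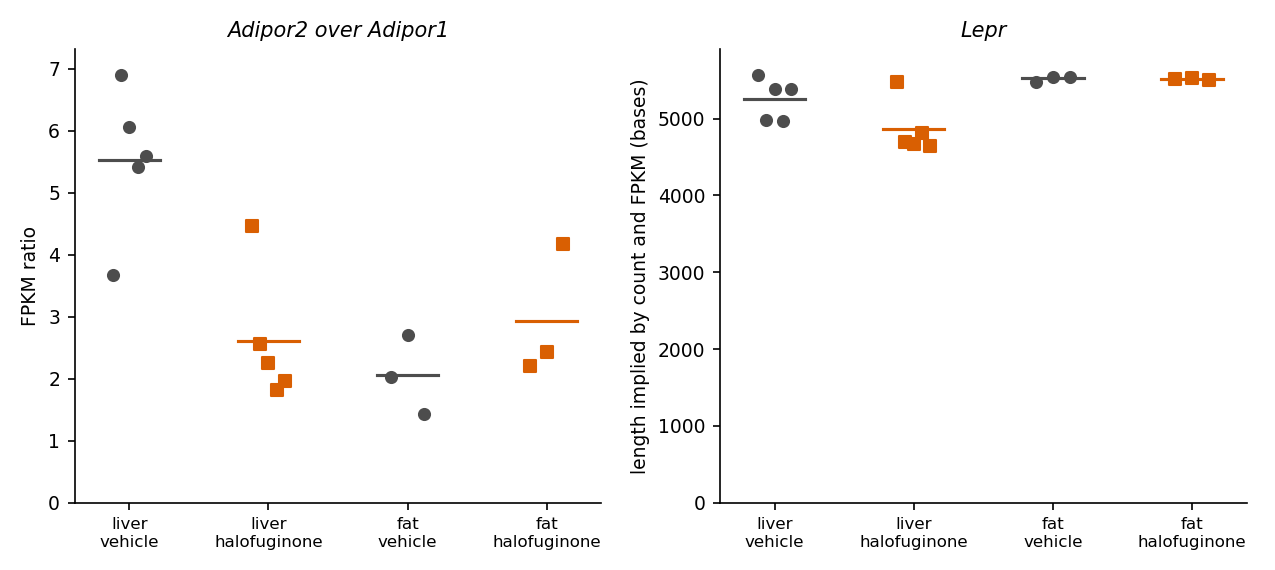
Left, FPKM ratio of Adipor2 to Adipor1 in each library; right, length of Lepr in bases implied by its count and FPKM. Points are libraries (circles vehicle, squares halofuginone), bars are group means, and both axes start at 0. In both panels treated liver library 1 lies with the vehicle livers and the other 4 treated livers lie below them.

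In fat neither receptor separated the arms. Adipor1 was at 241.3, 232.2 and 231.5 CPM in vehicle and at 252.1, 243.8 and 216.3 CPM under halofuginone, a log2 fold change of 0.015 (SE 0.14). Adipor2 was at 631.4, 810.4 and 424.2 CPM in vehicle and at 718.6, 766.9 and 1171 CPM in treated fat, a log2 fold change of 0.51 (SE 0.30) that was 0.27 without treated library 3 and to 0.30 without vehicle library 3.

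Resistin was at 198.8, 274.7 and 86.3 CPM in vehicle fat and at 229.5, 223.0 and 344.5 CPM in treated fat. The arms overlapped, and the log2 fold change of 0.51 (SE 0.42) was 0.17 without vehicle library 3 and 0.90 without vehicle library 2. Liver held 0 or 1 count of Retn in every library.

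Visfatin and chemerin were lower in treated liver and did not separate in fat. Nampt was at 76.3, 101.8, 88.4, 101.3 and 87.2 CPM in vehicle liver and at 89.5, 34.4, 36.5, 45.5 and 49.0 CPM in treated liver. Treated library 1 lay inside the vehicle range and the other 4 below it, and the log2 fold change was −0.84 (SE 0.23), or −1.16 without library 1. In fat, Nampt was at 181.7, 105.5 and 185.6 CPM in vehicle and at 193.1, 199.0 and 141.5 CPM under halofuginone (log2 fold change 0.17, SE 0.26). The implied length of Nampt ran from 3646 to 4488 bases in vehicle liver, from 4177 to 4529 in treated liver and from 4467 to 4527 in fat.

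Rarres2 was at 320.6, 340.8, 298.3, 381.2 and 340.9 CPM in vehicle liver and at 298.1, 136.8, 136.9, 241.2 and 178.3 CPM in treated liver. The arms almost touched, treated library 1 lying just under the lowest vehicle liver, and on FPKM they overlapped (360.3 to 495.8 in vehicle, 194.0 to 386.1 treated). The log2 fold change was −0.76 (SE 0.21), and −0.98 without library 1. In fat Rarres2 was at 315.9, 384.6 and 176.8 CPM in vehicle and at 332.6, 272.4 and 364.8 CPM under halofuginone, a log2 fold change of 0.14 (SE 0.30) that turned to −0.11 without vehicle library 3.

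Of the 6 members that passed the filter on low counts in liver, 5 were called by edgeR's quasi-likelihood test at an adjusted p under 0.05, 1 higher and 4 lower, beside 23.2% of all 12311 genes tested, 12.7% higher and 10.5% lower. In the 10 fits that left out 1 liver, Cfd and Lepr kept their calls, while Adipor2, Nampt and Rarres2 lost theirs in 1, 8 and 6. Adipor1 was also called with library size alone, as were 3627 of 12311 genes, and with limma on log2(FPKM + 1), as were 2877 of 9987. The drug contrast chose the members, so nothing is read from these counts. Of the 9 members in fat 0 were called, as were 0 of all 14030 genes tested (0.00%), although 1881 genes had an unadjusted p under 0.05. DESeq2 called 665 genes there, among them Cfd, which was chosen on this contrast. Only Cfd had arms that did not overlap in fat, where 20.6% of all genes had such arms (10.2% higher and 10.4% lower). In liver Lepr lay apart above vehicle, beside 5.13% of all genes, and Cfd and Rarres2 below, beside 6.55%, 11.7% in all.

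The other genes of the pathways gave the setting. The tables held 108 list genes. In liver 89 were tested, and edgeR called 7 higher and 9 lower, a smaller share than the 23.2% of all genes, with a median log2 fold change of −0.083 beside 0.017 over all genes. In fat 102 were tested and 0 were called, with a median of 0.092 beside 0.012. Without halofuginone liver library 1 the called list genes numbered 30 of 91 tested, a smaller share than the 5312 of all 12422 genes. They numbered 7 to 10 without any 1 of the vehicle livers or of halofuginone livers 3, 4 and 5.

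Downstream of leptin, 2 of 16 tested genes rose in liver and 1 fell. Irs2, an insulin receptor adaptor, rose by 0.47 on the log2 scale (SE 0.15, edgeR adjusted p = 0.0463). Leprot, which controls how much leptin receptor reaches the cell surface, rose from 12.9 ± 0.69 to 15.7 ± 0.78 CPM (SD, n = 5 each, edgeR adjusted p = 0.0249) with no overlap. Since Leprot shares its first exons with Lepr, the 2 genes can share reads, and the part of Lepr reads in this rise was not tested. Stat5a, a factor downstream of cytokine receptors, fell by 0.65 (SE 0.18, edgeR adjusted p = 0.0276). These calls were close to the threshold and were lost in 9, 5 and 7 of the 10 fits that left out 1 liver, with adjusted p of at most 0.112. Socs3, a target and brake of leptin signalling, was at 12.3 ± 7.82 CPM in vehicle and 19.1 ± 23.4 CPM in treated liver (edgeR adjusted p = 0.492). In fat, 0 of 17 were called, and Irs2 went from 76.5 ± 20.1 to 168.5 ± 37.7 CPM (SD, n = 3 each, log2 fold change 1.14, edgeR adjusted p = 0.179).

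Around the adiponectin receptors, 2 of 19 genes rose in liver and 2 fell. Appl1, the adaptor that binds both receptors, rose from 7.12 ± 0.87 to 12.8 ± 3.62 CPM (log2 fold change 0.84, SE 0.18, edgeR adjusted p = 0.0122), and Stk11, the kinase upstream of AMPK, rose by 0.27 (SE 0.08, edgeR adjusted p = 0.0383). Gstk1, which helps adiponectin assemble into multimers and is also a peroxisomal and mitochondrial glutathione transferase, fell from 105.4 ± 11.1 to 43.6 ± 20.9 CPM (−1.28, SE 0.26, edgeR adjusted p = 0.0102) with no overlap. Ppargc1a, a coactivator of mitochondrial genes, fell by 0.92 (SE 0.31, edgeR adjusted p = 0.0492). The calls of Appl1 and Gstk1 were kept in all 10 fits that left out 1 liver, while those of Stk11 and Ppargc1a were lost in 7 and 9. In fat 0 of 19 were called. There Ppara was at 1.44 CPM in vehicle and 2.82 ± 1.03 CPM in treated fat (edgeR adjusted p = 0.368), and Prkab2, a subunit of AMPK, stood at −0.41 on the log2 scale (SE 0.16, edgeR adjusted p = 0.346).

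In the complement pathway that adipsin feeds, 1 of 15 genes rose in liver and 2 fell. C3, the protein on which the pathway turns, rose from 9239 ± 1255 to 18770 ± 8671 CPM (log2 fold change 1.02, SE 0.31, edgeR adjusted p = 0.0361), and Cd59a, which blocks the membrane attack complex, fell from 52.9 ± 5.07 to 24.4 ± 9.16 CPM (−1.12, SE 0.20, edgeR adjusted p = 0.00716). The third call was C5ar2, which lay under 5 CPM. Cfb, the substrate of adipsin, stood at −0.26 on the log2 scale (SE 0.16, edgeR adjusted p = 0.248). The Cd59a call was kept in all 10 fits that left out 1 liver and the C3 call in 1, the fit without halofuginone library 1 (edgeR adjusted p = 0.00278).

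In fat the list had a median of −0.65, beside 0.012 for all genes, with 0 of 14 called and 5 whose treated libraries all lay below vehicle, as did those of 10.4% of all genes. C5ar1 and C3ar1, receptors for complement fragments carried by myeloid cells, were at 167.5 ± 47.5 and 292.7 ± 124.9 CPM in vehicle and at 56.4 ± 11.9 and 107.0 ± 16.1 CPM in treated fat (edgeR adjusted p = 0.120 and 0.171). The 10 macrophage markers summed to 4378 to 9606 CPM in vehicle fat and 2978 to 3215 CPM in treated fat, and their part in these values was not tested.

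The difference of the drug effect between the tissues, taken from 1 fit of all 16 libraries as if they were independent, was called for 141 of 14853 genes (0.949%, with the effect higher in fat for 0.417% and lower for 0.532%) and for 3 list genes. Cd55 and Vsig4, both brakes on complement at the cell surface, had fat minus liver differences of −1.39 (SE 0.27, edgeR adjusted p = 0.0291) and −3.36 (SE 0.72, edgeR adjusted p = 0.0412), and Pparg, the master regulator of the fat cell, had 1.71 (SE 0.37, edgeR adjusted p = 0.0438). Vsig4 is made by resident macrophages, and it went from 7.48 ± 2.26 to 0.665 ± 0.895 CPM in fat. These 3 calls were lost in 9, 12 and 13 of the 16 fits that left out 1 library, with edgeR adjusted p of 0.0511 to 0.0979 there.

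In the list of resistin relatives and of the receptors of chemerin and resistin, 0 of 4 tested genes were called in liver and 0 of 6 in fat. Cmklr1, the main chemerin receptor, was at 4.49 ± 0.28 CPM in vehicle and 4.09 ± 0.43 CPM in treated liver (edgeR adjusted p = 0.404), with a sign that turned with library size alone. Ccrl2, which binds chemerin without signalling, was at 17.6 ± 2.43 and 34.4 ± 10.9 CPM in vehicle and treated fat (edgeR adjusted p = 0.221). Around Nampt, 0 of 11 genes rose in liver and 1 fell, Nadk, the kinase that makes NADP from NAD, by 0.51 (SE 0.15, edgeR adjusted p = 0.0333), a call lost in 7 of the 10 fits that left out 1 liver. In fat 0 of 14 were called. Cd38, an enzyme that consumes NAD, was there at 22.7 ± 4.71 CPM in vehicle and 35.9 ± 6.07 CPM treated (edgeR adjusted p = 0.284).

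Among other hormones that fat releases, 2 of 15 tested genes rose in liver and 1 fell. Fgf21, a hormone that liver makes under fasting and stress, rose from 12.8 ± 5.24 to 96.7 ± 57.6 CPM (log2 fold change 2.91, SE 0.51, edgeR adjusted p = 0.00617) with no overlap and kept its call in all 10 fits. Lcn2, an iron-binding acute phase protein, rose by 3.78 (SE 1.10, edgeR adjusted p = 0.0319), but 1 treated liver held 2987 CPM and the next 798.9, and the call was lost in 6 of 10 fits, the one without that liver included. Dpp4, a protease that inactivates incretins, fell from 114.2 ± 6.05 to 78.1 ± 17.4 CPM (−0.55, SE 0.14, edgeR adjusted p = 0.0209) and lost its call without halofuginone library 3 (adjusted p = 0.0576). In fat 0 of 21 were called, and Gdf15, a stress hormone, was at 23.2 ± 9.42 CPM in vehicle and 92.0 ± 26.1 CPM in treated fat (log2 fold change 1.99, SE 0.34, edgeR adjusted p = 0.130).

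Of the transcription factors of the fat cell, 0 of 9 rose in liver and 2 fell. Pparg fell from 18.7 ± 7.37 to 7.75 ± 0.77 CPM (−1.26, SE 0.25, edgeR adjusted p = 0.00947) with no overlap and in all 10 fits that left out 1 liver. Cebpb fell by 0.32 (SE 0.10, edgeR adjusted p = 0.0430), a call lost in 7 of those fits. In fat 0 of 11 were called and 10 had a positive log2 fold change, with a median of 0.35. Pparg there was at 141.1 ± 30.7 CPM in vehicle and 195.5 ± 8.95 CPM in treated fat (edgeR adjusted p = 0.367), and Ebf1 stood 0.82 (SE 0.28) and Cebpb 0.80 (SE 0.28) above vehicle on the log2 scale (edgeR adjusted p = 0.301 and 0.304).

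**Figure D5:**
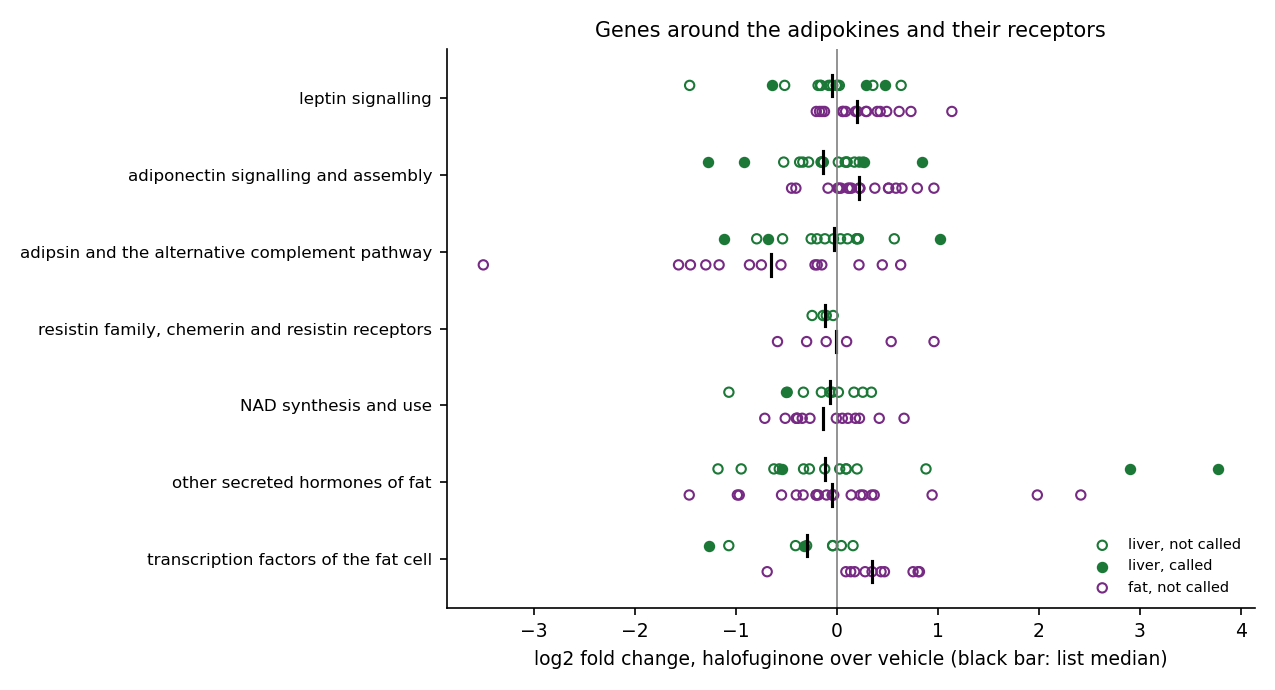
Log2 fold change, halofuginone over vehicle, of each tested gene in the 7 pathway lists; green circles are liver, purple circles fat, filled circles called by edgeR at an adjusted p under 0.05, and black bars list medians. The 16 filled liver circles lie on both sides of 0, and the complement list in fat has the lowest median, −0.65.

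The genes most like Cfd and Lepr across the 10 livers were sought by the root mean square difference of log2 CPM, each gene centred on its own mean, over the 8817 genes with at least 5 CPM on average. Nearest to Cfd was Cidea, a lipid droplet protein of fat cells and of fatty liver, with a difference of 0.66, at 20.9 ± 11.6 CPM in vehicle and 0.0598 ± 0.0568 CPM in treated liver. Plin4 (1.78), Acss3 (1.92), Car3 (1.97) and Lgals1 (2.08) came next, well behind Cidea. With a prior count of 0.5 in place of 2, 4 of these 5 stayed, and the distances of Cfd depend on that prior because its treated values are at the floor. Nearest to Lepr were Arhgef2 (0.59), Atf5 (0.62), Fgf21 (0.66), Gtpbp2 (0.68) and Ctsl (0.69), the same 5 with either prior. Atf5, a factor of the ATF4 stress response, was at 126.9 ± 8.71 CPM in vehicle and 567.3 ± 253.9 CPM in treated liver. The lowest treated liver held 479.0 CPM of Ctsl, inside its vehicle range of 471.8 to 547.8. For Arhgef2 (6.66 CPM beside 4.66 to 6.24), Atf5, Fgf21 and Gtpbp2 the lowest treated value was above all vehicle livers. Lepr in treated library 1 was at 18.1 CPM, beside 3.55 to 6.48 in vehicle.

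In the 6 fat libraries, over 10952 genes, Cfd was nearest to Ifitm6 (0.26), Chchd10 (0.37), Gpx3 (0.38), Agt (0.41) and Slc1a3 (0.46), all with treated means above vehicle. Gpx3, a secreted glutathione peroxidase, was at 539.1 ± 204.4 CPM in vehicle and 1272 ± 131.3 CPM in treated fat. Lep was nearest to Pde7a (0.12), Cd59a (0.14), Bcat1 (0.18), Plce1 (0.18) and Sh2d4a (0.21), whose arms overlapped as those of Lep did. All these libraries share the 2 arms of the study, so genes that differ between the arms lie close to each other by that alone.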

How the data were processed

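Poly(A)-selected RNA was sequenced from liver and white adipose tissue. The authors deposited 1 table per tissue, and per the file headers every library has its counts beside its FPKM. Per the submitters' processing notes, fastp 0.18.0, Bowtie2 2.2.8, HISAT2, StringTie 1.3.1, RSEM and mm39 were used. Their order, the annotation and the strand setting are not given in the sources used here. The deposited counts are whole numbers, but 1 to 31 genes per library pair a zero count with a positive FPKM, so they may be rounded estimates. Reads of overlapping genes may be shared. Of 22322 gene identifiers 22267 had a symbol, and 1 list gene (Asip) had no match.

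Library titles gave the groups. The 9 members and all lists were chosen with earlier results of these data known. The list genes named are, per list, tissue and direction, up to 3 called genes with at least 5 CPM, or up to 2 of smallest p where a list had no call. Socs3, Cfb and C5ar2, Pparg in fat, the list genes called for the difference of effects (Cd55, Vsig4 and Pparg) and the fat cell markers were named, and the markers set against Cfd, after their values were seen.

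Liver and fat were fitted separately in R 4.3.3 by edgeR 4.0.16 (filterByExpr, TMM scaling, glmQLFit, glmQLFTest, two-sided, Benjamini-Hochberg over all genes tested, called at an adjusted p under 0.05). The tissue contrast and the difference of the drug effects came from 1 fit of all 16 libraries. CPM is the count over the TMM-scaled library size within a tissue. The SE is the absolute log2 fold change over the root of F. No 2 libraries of a group agreed within sampling noise (chi-square per degree of freedom at least 29.7 in liver and 50.5 in fat). The tests were also run on simulated counts. No simulated library stood apart as halofuginone liver 1 did, so that run does not cover this feature of the data. Alternatives were DESeq2 1.42.0, its size factors in edgeR, library size alone, no filter or at least 10 counts, 1 joint fit of all 4 groups, a block on replicate number, limma 3.58.1 on log2 of the deposited FPKM plus 1 or 0.1 (genes with a mean of at least 1), and leaving out each library. The Dixon gap check covered groups of 5 libraries.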

Additional observations from a re-analysis of the deposited data

Results flagged for a closer look

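A library was singled out where the gap to its nearest neighbour exceeded 0.71 of its group's range, which held for 7 of 45 gene and group combinations in liver, with 2.25 given by chance. Vehicle liver 2 held 30.5 CPM of Cfd, with 12.9 CPM in the next. Halofuginone liver 1 held 565.2 CPM of Adipor2, 89.5 CPM of Nampt and 5.71 CPM of Ppargc1a, above the other treated livers each time (next 323.5, 49.0 and 2.82 CPM). That library also lay beside vehicle on the first principal component and in the sum of ATF4 response genes, and why it did was not tested. Lcn2 stood apart in both arms, at 134.5 CPM in vehicle liver 1 (next 50.8) and 2987 CPM in halofuginone liver 2 (next 798.9). Cebpb was at 59.7 CPM in halofuginone liver 5, with 53.1 CPM in the next.

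The drug effect in fat minus that in liver stood out for 5 genes on the log2 scale. It was 10.8 for Cfd (5.71 to 11.8 over all alternatives, with treated liver at the floor) and −2.93 for Lepr, which were chosen for this pattern. By the interaction test of edgeR it was −1.39 for Cd55, −3.36 for Vsig4 and 1.71 for Pparg. For Cfd every treated liver was below and every treated fat library above its vehicle group. The Lepr arms were apart in liver and overlapped in fat.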

How the results depend on the processing

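Genes called numbered 2850 in liver, 0 in fat, 141 for the difference of effects and 10746 for the tissues, and list genes 16, 0, 3 and 87. With DESeq2 the fat count was 665 (9 of the lists), the difference 685 (8 of the lists) and the liver lists 25. One fit of all 4 groups called 334 genes in fat (7 of the lists), no filter on low counts called 1, and limma on log2(FPKM + 1) called 291 for the difference. Library size alone gave 2789 higher and 838 lower liver genes, against 1558 and 1292, and moved the median log2 fold change from 0.017 to 0.17. Within a tissue, same-numbered libraries of the arms had correlations of −0.16 to 0.057 in liver and −0.57 to 0.11 in fat. Of all samples liver number 4 alone correlated best with its own. With so few libraries these values cannot show whether the replicate numbers pair vehicle with halofuginone libraries. With the replicate block the liver lists had 10 calls, the difference 20 and its lists 0.

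Leaving out 1 library gave 1275 to 5312 calls in liver (lists 7 to 30), 0 to 1 in fat (lists 0), 34 to 1053 for the difference (lists 0 to 8) and 10326 to 11053 for the tissues (lists 83 to 88). Signs turned for Cmklr1 in liver, at 0.016 with library size alone and 0.055 and 0.081 with limma on FPKM plus 1 and 0.1. For fat against liver they turned for Lepr (0.34, 0.12 and 0.21) and Nampt (0.83, 0.62 and 0.64) under the same settings, and the cause was not tested. Depth limits Cfd in treated liver, and Lep, Adipoq and Retn in all livers, to upper bounds.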
